A study of Mus musculus with 4 samples.

Results

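The collagen genes are the protein-coding genes whose symbol has the form Col, a type number, a and a chain number. There were 44 of them among the 55487 genes counted, of which 21936 were protein-coding. The rule used symbols and the biotype given with the counts, and no measured value, but it was set with earlier results of these data known. All 44 had at least 10 counts in total and were among the 19384 genes tested. By the molecules they build, 11 encode fibrillar collagens, 6 encode the type IV collagens of basement membranes, and 27 encode other collagens.

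Collagens are secreted proteins in which chains wind around each other into a helix, and each chain of the helix repeats the triplet glycine-X-Y, where X and Y are often proline and hydroxyproline. Fibrillar collagens (types I, II, III, V, XI, XXIV and XXVII) have a long helix, interrupted in types XXIV and XXVII, and assemble into fibrils, while type IV has a helix with many breaks and forms a sheet-like network under epithelia and around vessels. The other types decorate fibrils (the FACIT collagens), form beaded filaments (type VI), anchor basement membranes (type VII) or span the cell membrane. Fibroblasts are known as the main source of types I, III, V and VI in connective tissue.

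The libraries were made from wild-type mouse embryonic fibroblasts (MEFs) at passage 2, in medium with 10% fetal bovine serum. The passage is that of the sample labels, and the paper's text names a later one. Control MEFs received no PEDF, and PEDF-treated MEFs received 100 ng/mL of pigment epithelium-derived factor, a secreted glycoprotein of the serpin family purified from mammalian cells, for 24 h. There were 2 experiments, each with its own embryos and with 1 control and 1 PEDF library, so that control 1 and PEDF 1 came from one preparation and control 2 and PEDF 2 from another. By the paper's methods the MEFs came from mid-gestation C57BL/6J embryos, and how many embryos were pooled is not given in the sources used here.

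Each library held between 14722848 and 18144640 counts. Levels are given as TPM (transcripts in 1000000), in which the count of a gene is divided by its length before scaling, so that levels of different genes can be compared. In the fibroblast list, 8 of 8 markers were at 1 TPM or more, with summed levels of 4954 and 5622 TPM in control 1 and 2 and 4439 and 4978 TPM in PEDF 1 and 2. Markers of other cells were measured too. The endothelial list summed to 6.83 to 7.24 TPM, with Cldn5 at 0 in all 4 libraries, and the epithelial list to 72.5 to 90.8 TPM, most of it from Krt8 and Krt18. The macrophage list lay at 135.1 to 226.4 TPM and was lowest in control 2, and the skeletal muscle list lay at 363.6 to 474.3 TPM and was highest in PEDF 2. Chondrocyte markers summed to 135.1 to 171 TPM, with Ucma at 0 in 3 libraries. MEFs are prepared from whole embryos, and in RNA from a mixed culture, fewer cells of a type and less RNA per cell cannot be told apart.

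The coding sequences show the repeat that defines the family. Below are 10 triplets from the start of the longest unbroken run in 5 chains, read from the GENCODE M21 transcripts (GRCm38) on the coding strand, with the glycine codon of each triplet in capitals and the positions counted in codons from the start codon. They were chosen to show the most abundant chain pair of fibrils beside a network, a beaded filament and an anchoring fibril chain.
Col1a1, codons 168 to 197: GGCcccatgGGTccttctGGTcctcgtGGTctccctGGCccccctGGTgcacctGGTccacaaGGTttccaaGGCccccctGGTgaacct
Col1a2, codons 97 to 126: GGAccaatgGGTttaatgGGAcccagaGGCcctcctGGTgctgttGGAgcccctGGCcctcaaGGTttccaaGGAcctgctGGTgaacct
Col4a1, codons 43 to 72: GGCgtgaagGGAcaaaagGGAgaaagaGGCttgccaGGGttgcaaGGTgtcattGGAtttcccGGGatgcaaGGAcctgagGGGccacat
Col6a1, codons 256 to 285: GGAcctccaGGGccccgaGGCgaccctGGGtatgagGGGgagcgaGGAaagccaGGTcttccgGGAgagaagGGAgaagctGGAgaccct
Col7a1, codons 2518 to 2547: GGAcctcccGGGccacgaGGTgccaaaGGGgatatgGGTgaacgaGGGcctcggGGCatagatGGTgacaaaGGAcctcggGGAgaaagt
In every line the glycine codons recur each 9 bases, whatever the class of the chain, and the classes differ in how far this goes on without a break.

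In the 9 genes of the major fibrillar collagens the longest run held 337 to 344 triplets, and in Col24a1 and Col27a1 it held 216 and 217. In the 6 type IV genes the longest run held 39 to 66 triplets, but the coding sequence contained 22 to 27 runs of at least 5 triplets, which together covered at least 75.4% of it. The 27 other genes had a longest run of 23 to 113 triplets, and runs covered from 8.2% of the coding sequence in Col12a1 to 86.9% in Col9a3. Exon length, the measure used for TPM, ran from 3095 bp in Col9a2 to 15228 bp in Col12a1 (median 9243 bp for fibrillar, 7719 bp for type IV and 6887 bp for the others). Col12a1 and Col6a3 (11963 bp) have long coding sequences of 3065 and 3284 codons, of which runs covered 8.2% and 10.1%. Col1a2 has 12426 bp of annotated exons for only 1372 codons. Exon length counts every exon annotated for a gene, so the TPM of a gene such as Col1a2 is understated if its cells mostly make a shorter transcript.

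Several members are neighbours in the genome. Col4a1 (chr8:11198423-11312826, minus strand) and Col4a2 (chr8:11312805-11449287, plus strand) are transcribed away from each other and their annotated spans overlap by 22 bp at the start. Col4a3 and Col4a4 on chromosome 1 are arranged in the same way with 71 bp between them, as are Col4a5 and Col4a6 on chromosome X with 1308 bp between them. Col3a1 and Col5a2 lie 24614 bp apart on chromosome 1. The RefSeq window around the start of Col4a2 (GRCm38.p6, chr8:11312555-11312854, plus strand, 250 bases before and 50 after the start) is shown because both genes of the pair were called lower in PEDF-treated MEFs by edgeR with a block for the experiment, with the match to the CCAAT box in capitals.
Col4a2: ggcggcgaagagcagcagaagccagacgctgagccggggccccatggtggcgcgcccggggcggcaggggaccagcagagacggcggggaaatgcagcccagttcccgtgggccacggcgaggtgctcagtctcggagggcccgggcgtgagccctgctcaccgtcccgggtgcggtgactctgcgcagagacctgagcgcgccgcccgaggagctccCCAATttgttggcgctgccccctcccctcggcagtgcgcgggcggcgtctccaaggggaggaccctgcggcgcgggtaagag
A window was given for 35 of the 44 genes. CCAAT, searched on both strands, was present in 13 of these 35 (37.1%, against 41.1% of all 27025 genes with a window), TATAAA in 5 (14.3% against 15.7%) and GGGCGG, the core of a GC box, in 22 (62.9% against 38.2%). The 27025 genes were not limited to protein-coding ones, and a gene counted if any of its windows matched, so the sets are unlike.

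The MEFs expressed collagen genes over more than 4 orders of magnitude, and the fibrillar genes stood at the top. Mean levels over the 4 libraries were at least 1000 TPM for 5 members, at least 100 TPM for 16, at least 10 TPM for 28 and at least 1 TPM for 36. Col1a1, the major chain of type I collagen, ranked 6 among all genes tested. In the order of mean levels, 30 of the 43 neighbouring pairs had ranges over the 4 libraries that overlapped, so most single steps in the order were within the spread between libraries, although some steps, such as that from Col1a1 to Col1a2, were not.

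**Figure D1:**
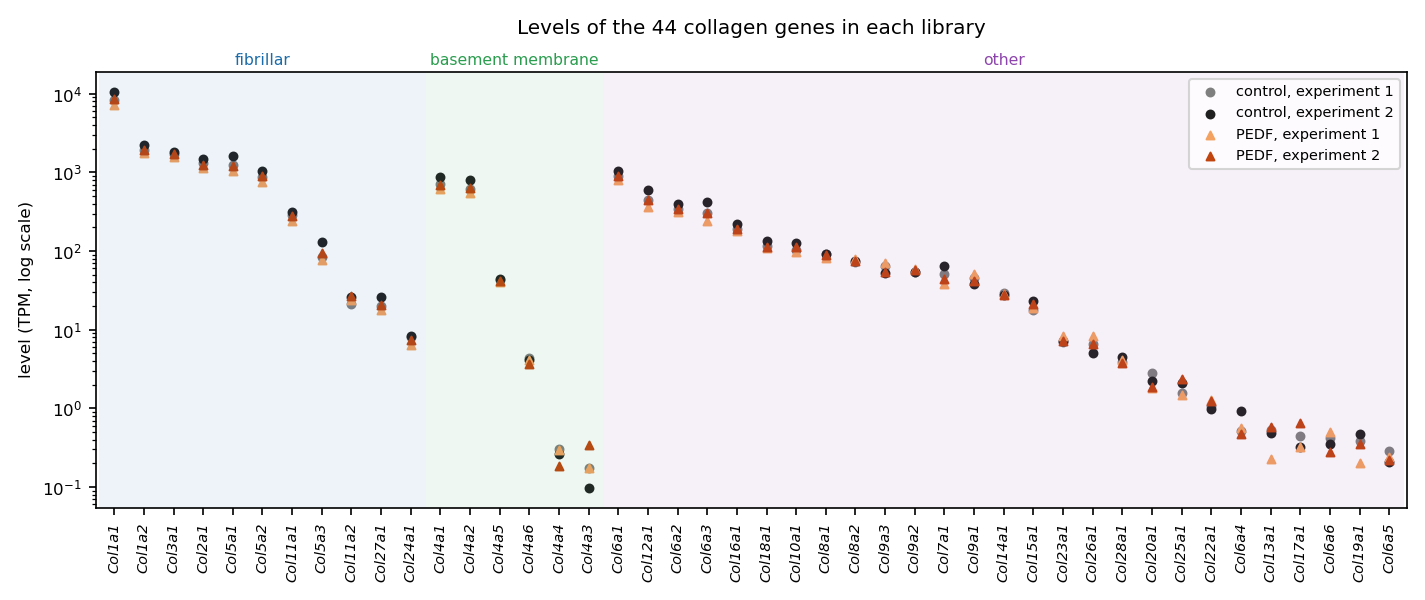
Levels of the 44 collagen genes (TPM, log axis) in each of the 4 libraries, grouped by class and ordered by mean level within a class. Circles are control and triangles PEDF libraries; 5 genes lie at or above 1000 TPM on average, all fibrillar, and 8 lie below 1 TPM.

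Among the fibrillar genes, Col1a1 was measured at 8332 and 10587 TPM in control 1 and 2 and at 7226 and 8469 TPM in PEDF 1 and 2. Its partner Col1a2 was measured at 1922 and 2206 TPM in control and at 1786 and 1932 TPM in PEDF-treated MEFs. Col3a1, which makes up type III fibrils, followed at 1703 and 1836 TPM in control and 1577 and 1700 TPM in PEDF-treated MEFs. For Col1a1 the PEDF library of experiment 2 lay above the control library of experiment 1, so the TPM ranges of the groups overlapped, and the same holds for Col1a2, whereas for Col3a1 both PEDF libraries lay below both control libraries.

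Col2a1, the fibrillar collagen of cartilage, was at 1316 and 1469 TPM in control and 1126 and 1250 TPM in PEDF-treated MEFs. The type V chains Col5a1 and Col5a2, which help to set fibril diameter, had mean levels of 1277 and 893 TPM, and Col5a3 had 96.7 TPM. The cartilage fibril chains Col11a1 and Col11a2 had mean levels of 279 and 24.6 TPM. Other cartilage genes were also present, with Acan, the core protein of aggrecan, at 63.3 and 93.3 TPM in control and 52.3 and 62.7 TPM in PEDF-treated MEFs, and Sox9, a chondrocyte transcription factor, at 35.3 to 42.6 TPM. Col27a1 and Col24a1 were the lowest of the fibrillar genes, with means of 21.2 and 7.56 TPM.

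In type IV, only the Col4a1 and Col4a2 pair was abundant. Col4a1 was at 716 and 873 TPM in control and 619 and 699 TPM in PEDF-treated MEFs, and Col4a2 at 617 and 792 TPM in control and 540 and 629 TPM in PEDF-treated MEFs. Col4a5 had a mean of 42.4 TPM and Col4a6 of 4.08 TPM, and Col4a3 and Col4a4, chains known from kidney and lung basement membranes, had 46 and 64 counts over all 4 libraries, under 1 TPM.

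Of the other collagens, type VI and Col12a1 led. Means were 916 TPM for Col6a1, 348 TPM for Col6a2 and 317 TPM for Col6a3, the 3 chains that together form type VI collagen, while Col6a4, Col6a5 and Col6a6 were each under 1 TPM. Col12a1 (461 TPM), a FACIT collagen bound to type I fibrils, and Col16a1 (195 TPM) were the highest FACIT members. Col10a1, the collagen of hypertrophic cartilage, had 111 TPM, and Col7a1, which forms the anchoring fibrils under skin, 49.3 TPM. The cartilage type IX genes Col9a1, Col9a2 and Col9a3 had means of 44.1, 56.1 and 60.4 TPM, within 1.5-fold of each other.

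Collagen genes together held 2.00% and 2.44% of all TPM in control 1 and 2 and 1.76% and 2.01% in PEDF 1 and 2. The means were 2.22% ± 0.307 in control and 1.89% ± 0.177 in PEDF-treated MEFs (SD, n = 2 each), a difference of -0.334 percentage points. PEDF 2 lay between the control libraries, and an exact two-sided permutation test gave p = 0.667. As a share of counts, which gives long genes more weight, the groups did not overlap (5.81% and 6.71% in control, 5.29% and 5.69% in PEDF-treated MEFs, exact permutation p = 0.333). With 2 libraries against 2 the smallest p that such a test can give is 0.333, and with labels exchanged within experiments it is 0.5, so neither share could pass a threshold. Within experiments the TPM share was lower with PEDF by 0.242 percentage points in experiment 1 and by 0.426 in experiment 2. Leaving out control 2 reduced the difference between the means to -0.117 percentage points, and leaving out control 1 enlarged it to -0.551.

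**Figure D2:**
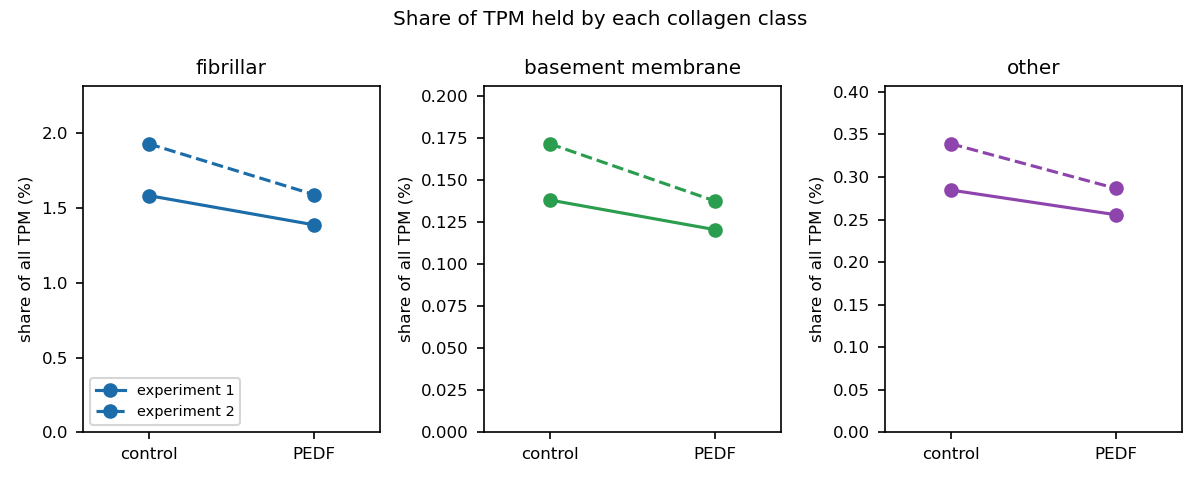
Share of all TPM (%) held by the fibrillar, basement membrane and other collagen genes in control and PEDF libraries, with a line for each experiment and axes that start at 0. Each class had a lower share with PEDF in both experiments, and the fibrillar share ran from 1.58% to 1.39% in experiment 1 and from 1.93% to 1.59% in experiment 2.

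The composition of the collagen output varied little. Fibrillar genes held 78.7% to 79.1% of the collagen TPM in the 4 libraries, type IV 6.83% to 7.03% and the others 13.9% to 14.5%. Col1a1 alone held 41.6% and 43.4% in control and 41.0% and 42.1% in PEDF-treated MEFs.

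Partner chains of a molecule can be compared per length. Col1a1 exceeded Col1a2 in TPM by 4.34 and 4.80 times in control 1 and 2 and by 4.05 and 4.38 times in PEDF 1 and 2 (exact permutation p = 0.667). In CPM (counts in 1000000, without the division by length) the same pair stood at 2.29 and 2.54 in control and 2.14 and 2.32 in PEDF-treated MEFs, which shows how much of this ratio depends on the 12426 bp of annotated exons of Col1a2. Type I collagen is known to contain more a1 than a2 chains.

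The Col4a1 to Col4a2 ratio was 1.16 and 1.10 in control and 1.15 and 1.11 in PEDF-treated MEFs, and the Col6a1 to Col6a2 ratio was 2.65 and 2.63 in control and 2.58 and 2.67 in PEDF-treated MEFs (exact permutation p = 1 for each). For both pairs the groups overlapped. The Col5a1 to Col5a2 ratio was 1.41 and 1.55 in control and 1.37 and 1.36 in PEDF-treated MEFs, without overlap, at the smallest p the design allows (0.333). Without control 2 its log2 difference between the groups shrank from -0.113 to -0.041, and that of Col1a1 to Col1a2 from -0.115 to -0.042.

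The question of the series was how PEDF changes gene expression in MEFs. Without a term for the experiment, 0 of the 44 collagen genes were called by edgeR's quasi-likelihood test at an adjusted p under 0.05, where 0.00516% of all genes tested were called, and 0 were called by DESeq2 or by limma. At an unadjusted p under 0.05 in edgeR there were 12, with 11 lower and 1 higher in PEDF-treated MEFs (of all genes tested 6.88% passed, 3.66% lower and 3.22% higher). The smallest adjusted p in edgeR was 0.279, for Col7a1. The log2 fold change was negative for 31 members and positive for 13, with a median of -0.12 against 0.00 for all genes tested. Both PEDF libraries lay below both control libraries in CPM for 21 members and above them for 5 (18.4% and 18.9% of all genes tested).

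Control and PEDF libraries of the same experiment came from the same MEFs, so a second fit took the experiment as a block. With it, edgeR's quasi-likelihood test called 17 members, 16 lower and 1 higher in PEDF-treated MEFs (3.75% of all genes tested were called, 2.07% lower and 1.67% higher). By class, 8 of 11 fibrillar genes, 2 of 6 type IV genes and 6 of 27 other genes were lower, and Col26a1, one of the others, was higher. Medians of the blocked log2 fold change were -0.21 for fibrillar, -0.17 for type IV and -0.05 for other genes. Calls were made among the 30 members with at least 1000 counts in total, and of the 14 members with fewer counts 0 passed, also at an unadjusted p under 0.05 (14.6% of all genes tested passed that). Among genes in the members' range of exon lengths with at least 1000 counts, 6.0% were called, 4.45% lower. These p-values and standard errors rest on a spread that edgeR shares across genes, and they do not follow how far a single gene's ratio differed between the 2 preparations: Col5a3, at -0.09 and -0.48 in experiments 1 and 2, has an SE of 0.05, and Col11a1, at -0.20 and -0.18, has one of 0.04. In DESeq2 with the same block, where 24 members had an adjusted p and 4.0% of the 2775 genes with one were called, 7 of the 17 were called, Col7a1, Col6a3, Col12a1, Col5a2, Col4a1, Col2a1 and Col11a1. Another 9 were not called there, Col1a1, Col1a2, Col5a1, Col5a3, Col27a1, Col4a2, Col6a1, Col6a2 and Col18a1, and Col26a1 received no adjusted p.

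The abundant members leaned one way. All 16 members with a mean of 100 TPM or more had a negative log2 fold change in both experiments, and 13 of them were called with the block, whereas of the 28 members under 100 TPM 3 were called lower and 1 higher. In CPM, control 2 was the highest library for 16 of these 16 abundant members and PEDF 1 the lowest for 15 of them. The highest and lowest library were not counted over all genes tested, so this describes the members only. Over all 44 members, 25 were lower with PEDF in both experiments and 10 were higher in both (28.8% and 30.1% of all genes tested), and the median log2 ratio was -0.07 in experiment 1 and -0.17 in experiment 2. Without the block, leaving out control 1 gave 9 calls (1.09% of all genes tested were called), leaving out PEDF 2 gave 1 (0.128%), and leaving out control 2 (0.0107%) or PEDF 1 (0.0106%) gave 0. The median was -0.06 without control 2 and -0.195 without control 1. Without control 2 the unblocked log2 fold change of 14 of the 17 genes called with the block shrank by more than 1.5-fold or, for Col5a3, changed sign, and Col7a1, Col2a1 and Col11a1 shrank less. Without PEDF 1 it shrank that much for 5 of the 17, and without control 1 it grew by more than 1.5-fold for 10.

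**Figure D3:**
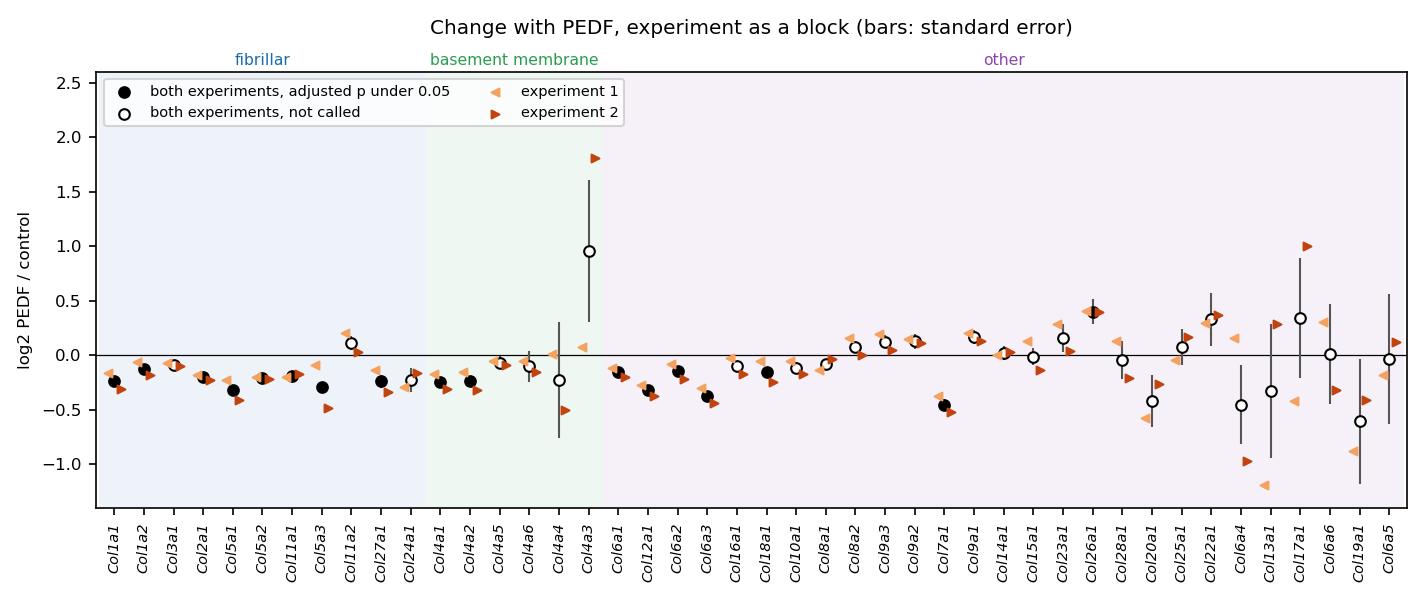
Log2 ratio of PEDF to control for each collagen gene with the experiment as a block (circles, bars are standard errors, filled where adjusted p is under 0.05 in edgeR), and the ratio within experiment 1 and experiment 2 (triangles). Of the 17 filled circles 16 lie below 0, and genes at the right of each class, with the lowest levels, have the widest bars.

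Col7a1 had the largest difference among the called members. Its level was 51.0 and 63.9 TPM in control 1 and 2 and 38.2 and 44.2 TPM in PEDF 1 and 2. Both PEDF libraries lay below both control libraries, with log2 ratios of -0.38 in experiment 1 and -0.52 in experiment 2. With the block the log2 fold change was -0.45 (SE 0.05, edgeR adjusted p = 1.61e-16), and without it -0.46 (SE 0.09, edgeR adjusted p = 0.279). Without control 2 it was -0.31, and DESeq2 with the block gave an adjusted p of 2.35e-05.

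Col6a3, the large chain of type VI collagen, was at 302 and 420 TPM in control and 238 and 307 TPM in PEDF-treated MEFs, a blocked log2 fold change of -0.37 (SE 0.04, edgeR adjusted p = 9.71e-17). In TPM its groups overlapped slightly, since PEDF 2 lay just above control 1. The other main type VI chains changed less, with -0.16 for Col6a1 (edgeR adjusted p = 0.00603) and -0.15 for Col6a2 (edgeR adjusted p = 0.0146) under the block. Col6a1 was at 898 and 1051 TPM in control and 806 and 911 TPM in PEDF-treated MEFs, and Col6a2 at 339 and 399 TPM in control and 312 and 341 TPM in PEDF-treated MEFs. Without control 2 the unblocked values were -0.15 for Col6a3, -0.06 for Col6a1 and -0.05 for Col6a2, and DESeq2 with the block gave adjusted p-values of 6.44e-09, 0.0576 and 0.149. Whether Col6a3 differed from its partners was not tested.

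Col12a1 was at 446 and 589 TPM in control and 359 and 452 TPM in PEDF-treated MEFs, with a blocked log2 fold change of -0.32 (SE 0.04, edgeR adjusted p = 1.05e-13), and PEDF 2 lay just above control 1 in TPM. Col5a1 was at 1241 and 1623 TPM in control and 1030 and 1212 TPM in PEDF-treated MEFs, without overlap, and its blocked log2 fold change was -0.32 (SE 0.04, edgeR adjusted p = 2.38e-14). The value for Col5a2 was -0.21 (edgeR adjusted p = 1.18e-05), from 883 and 1046 TPM in control and 750 and 893 TPM in PEDF-treated MEFs. Col5a3 was at 84.4 and 132 TPM in control and 77.0 and 93.7 TPM in PEDF-treated MEFs, the log2 ratio was -0.09 in experiment 1 and -0.48 in experiment 2, and it was called in edgeR with the block (-0.30, edgeR adjusted p = 2.03e-07). Without control 2 the unblocked values were -0.14 for Col12a1, -0.15 for Col5a1, -0.11 for Col5a2 and 0.02 for Col5a3. In DESeq2 with the block the adjusted p was 3.71e-08 for Col12a1 and 0.000653 for Col5a2, but 0.149 for Col5a1 and 0.617 for Col5a3.

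Col1a1 and Col1a2 encode the chains of the same molecule and were both called in edgeR with the block, at -0.24 (SE 0.03, edgeR adjusted p = 6.36e-10) and -0.12 (SE 0.04, edgeR adjusted p = 0.0199). In experiments 1 and 2 the log2 ratio of Col1a1 was -0.17 and -0.31, and that of Col1a2 was -0.07 and -0.18. DESeq2 with the block called neither (adjusted p = 0.164 for each), and without control 2 the unblocked values were -0.09 and -0.05. Col3a1 was not called (-0.09, SE 0.04, edgeR adjusted p = 0.197). Of the remaining fibrillar genes, Col2a1 had -0.20 (edgeR adjusted p = 1.12e-05), Col11a1 -0.19 (edgeR adjusted p = 0.000396) and Col27a1 -0.24 (edgeR adjusted p = 0.00193) with the block. In DESeq2 the first and second were called (adjusted p = 0.000704 and 0.00924) and Col27a1 was not (0.326). Acan, a proteoglycan of cartilage, was also lower under the block (-0.41, edgeR adjusted p = 2.19e-13), while Sox9 was at 0.13 (edgeR adjusted p = 0.363). Without control 2 the unblocked value of Acan was -0.14, and without PEDF 1 that of Sox9 was -0.02. Of the 8 chondrocyte markers only Acan was called, and its part in the Col2a1 and Col11a1 values was not tested.

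Both genes of the type IV pair were called in edgeR. The blocked log2 fold change was -0.24 for Col4a1 (SE 0.04, edgeR adjusted p = 3.12e-07) and -0.24 for Col4a2 (SE 0.04, edgeR adjusted p = 1.14e-06), from the TPM given above, in which PEDF 2 lay below control 1 for Col4a1 and just above it for Col4a2. In DESeq2 with the block only Col4a1 was called (adjusted p = 0.000505, against 0.282 for Col4a2), and without control 2 the unblocked values were -0.12 and -0.08. Col18a1, a basement membrane multiplexin that is the precursor of endostatin, was at 117 and 134 TPM in control and 110 and 112 TPM in PEDF-treated MEFs without overlap (-0.155 with the block, edgeR adjusted p = 0.0277), and it was not called in DESeq2 with the block (adjusted p = 0.394). No member of the endothelial marker list was called in either fit. In other marker lists Lyz2 of macrophages (0.39, edgeR adjusted p = 2.02e-05) and Acta1 (0.19, 0.0353) and Des (0.19, 0.0309) of muscle were higher with the block. Their direction was opposite to that of most collagen genes. Without the block none of them was called (edgeR adjusted p = 0.9397, 0.7193 and 0.6955), and Lyz2 was at -0.16 in the unblocked fit without control 2. The part of these markers in the collagen values was not tested.

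Col26a1, an EMI domain collagen that belongs to none of the main structural groups, was the only member called higher. It was at 6.56 and 5.04 TPM in control and 8.43 and 6.60 TPM in PEDF-treated MEFs, so its groups nearly met in TPM, and they overlapped in CPM, with control 1 at 19.04 and PEDF 2 at 18.75. The blocked log2 fold change was 0.40 (SE 0.11, edgeR adjusted p = 0.0179), with 0.40 in each experiment, and the unblocked value was 0.18 without PEDF 1, 0.20 without control 2 and 0.62 without control 1. The cartilage type IX genes and Col11a2 had positive values that did not pass, with 0.17 for Col9a1 (edgeR adjusted p = 0.103), 0.13 for Col9a2 (0.365), 0.12 for Col9a3 (0.321) and 0.11 for Col11a2 (0.462). The direction turned for 3 of these 4 when 1 library was left out, to -0.02 for Col9a1 and -0.12 for Col9a3 without PEDF 1, to -0.03 for Col9a3 without control 2 and to -0.01 for Col11a2 without control 1. The largest values in size among members with at least 50 counts belonged partly to rare transcripts, with -0.61 for Col19a1 (57 counts, edgeR adjusted p = 0.714), -0.45 for Col6a4 (124 counts, 0.636), 0.34 for Col17a1 (61 counts, 0.860) and 0.33 for Col22a1 (245 counts, 0.597). None of these 4 values passed the test. Col4a3, with 9 and 6 counts in control and 10 and 21 in PEDF-treated MEFs, had 0.96 (SE 0.65, edgeR adjusted p = 0.548), and its unblocked value was 0.46 without PEDF 2 and 0.59 without control 2.

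Gene length moved with the comparison. Over 10681 well expressed genes (mean log2 CPM over 3), the blocked log2 fold change fell by 0.048 for each doubling of exon length, and the members, which are long genes, had a slope of -0.06. In the shortest of 20 length bins of expressed genes, at a median of 754 bp, the median log2 fold change was 0.09, and in the longest, at 15856 bp, it was -0.12. At the members' own lengths the fitted length trend ran from -0.11 to 0.04 with a median of -0.04, and the trend with length and GC content (the share of G and C in the longest transcript) from -0.14 to 0.04 with a median of -0.08. What produced this trend in the libraries was not tested.

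**Figure D4:**
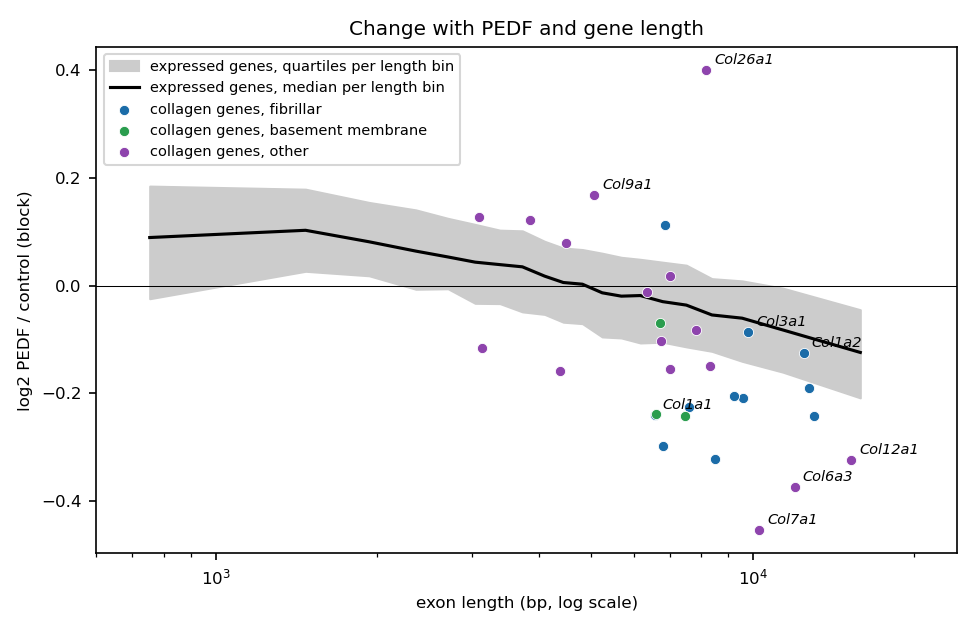
Blocked log2 ratio of PEDF to control against exon length (bp, log axis) for the collagen genes with at least 1000 counts, coloured by class, over the median and quartiles of expressed genes in 20 length bins. The median of expressed genes runs from 0.09 to -0.12, and Col7a1, Col6a3 and Col12a1 lie below it while Col26a1 lies above it.

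With the length trend removed from each library, 12 members were called with the block, 11 lower and 1 higher (2.17% of all genes tested were called, 1.26% lower and 0.913% higher). With the trends of length and GC content removed, there were 11, with 10 lower and 1 higher (2.09% of all genes, 1.17% lower and 0.929% higher), and all 11 were among the 17 called without the correction. In that fit the median was -0.06 over all members, -0.10 for fibrillar, -0.09 for type IV and -0.03 for other genes, and of genes in the members' length range with at least 1000 counts 3.77% were called, 2.15% lower. The 10 genes called lower were Col7a1, Col6a3, Col12a1, Col5a1, Col5a3, Col1a1, Col4a1, Col4a2, Col5a2 and Col6a1.

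Col7a1 had the largest value of these, at -0.33 (edgeR adjusted p = 5.98e-10), followed by Col6a3 at -0.26 (edgeR adjusted p = 4.88e-09), Col5a1 at -0.23 (edgeR adjusted p = 1.58e-07) and Col5a3 at -0.22 (edgeR adjusted p = 0.000164). Col12a1, the longest member, was at -0.20 (edgeR adjusted p = 1.53e-05). Col1a1 was at -0.17 (edgeR adjusted p = 0.000195), while Col1a2 and Col3a1 were both at -0.00 (edgeR adjusted p = 0.997 and 0.996). For Col1a2 the fitted trend, taken at its 12426 bp of annotated exons, was -0.12. Whether that length suits Col1a2, whose transcript in these cells may be shorter, was not tested. Col4a1 and Col4a2 were both at -0.17 (edgeR adjusted p = 0.00137 and 0.00146). The 6 genes whose call was lost were Col1a2, Col2a1 (-0.09), Col11a1 (-0.09), Col27a1 (-0.10), Col18a1 (-0.08) and Col6a2 (-0.07). Among them Col1a2, Col11a1 and Col27a1 have 12426, 12744 and 13022 bp of exons, but Col12a1 (15228 bp) and Col6a3 (11963 bp) kept their calls. Col2a1 was still called with the length trend alone removed (edgeR adjusted p = 0.0125), and the other 5 were not. Col26a1 was at 0.49 (edgeR adjusted p = 0.00167). These calls are edgeR's, and without removal of the trends the block in DESeq2 did not call Col5a1, Col5a3, Col1a1, Col4a2 or Col6a1.

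**Figure D5:**
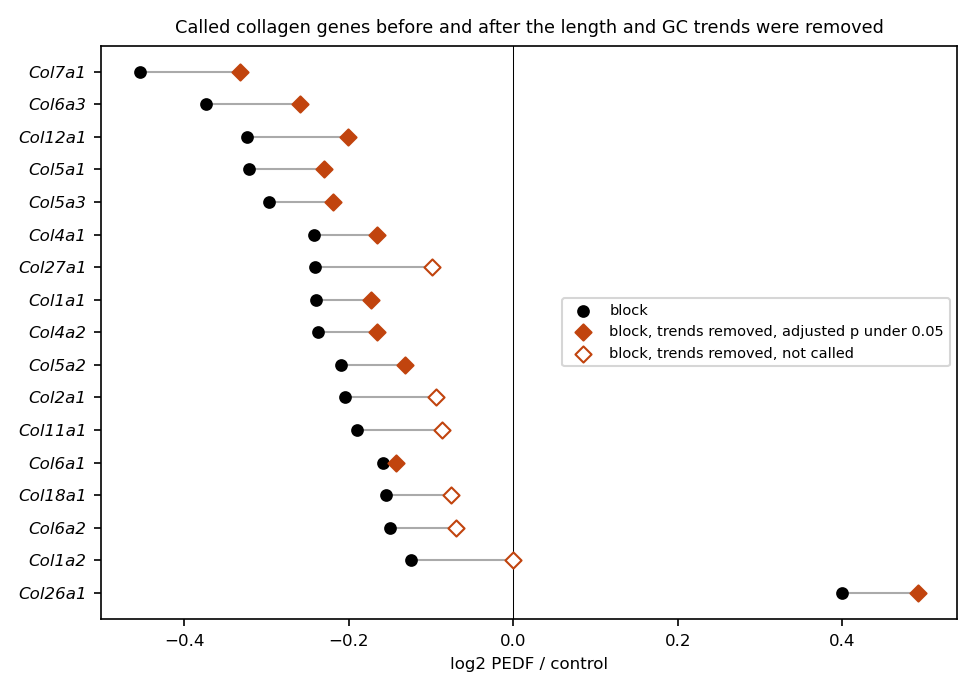
Log2 ratio of PEDF to control for the 17 collagen genes called with the block, before (circles) and after (diamonds) removal of the trends with exon length and GC content. Filled diamonds are still called; Col7a1 ran from -0.45 to -0.33, and Col1a2 from -0.12 to -0.00.

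Collagen genes were also compared between the 2 MEF preparations, and the count depended on the fit. With the treatment as a term, edgeR's quasi-likelihood test of experiment 2 against experiment 1 called 18 members, 15 higher and 3 lower in experiment 2 (4.49% of all genes tested were called, 2.3% higher and 2.19% lower), and the members' median difference was 0.11 on the log2 scale. After removal of the length trend 14 were called, 11 higher and 3 lower (3.13% of all genes, 1.74% higher and 1.39% lower). DESeq2 with the same terms, which called 1.9% of the 4686 genes with an adjusted p, called 4 of the 18, Col6a3 (adjusted p = 2.98e-08), Col12a1 (3.00e-07), Col5a2 (0.00485) and Col9a3 (0.0336), did not call 12 and gave no adjusted p for Col25a1 and Col26a1. Without the term for the treatment edgeR called 0 (0.0567% of all genes tested were called), with 12 at an unadjusted p under 0.05 (7.67% of all genes tested). In edgeR with the term, the higher genes included Col5a3 (0.41), Col6a3 (0.37), Col12a1 (0.31), Col5a1 (0.26), Col4a2 (0.24) and Col1a1 (0.23), and the lower ones were Col26a1 (-0.42), Col9a3 (-0.40) and Col9a1 (-0.32). Of these 9, DESeq2 did not call Col5a3 (adjusted p = 0.515), Col5a1 (0.534), Col4a2 (0.473), Col1a1 (0.328) or Col9a1 (0.181). This comparison and that of PEDF with control use the same 4 libraries.

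The genes that modify, fold, trim and cross-link collagen formed a list of 33, of which 32 were tested, beside 8 collagen receptors. Without the block 0 of these 40 genes were called by edgeR's quasi-likelihood test, 0 by DESeq2 and 0 by limma, and 6 were lower at an unadjusted p under 0.05 in edgeR (3.66% of all genes tested). With the block 6 biosynthesis genes and 3 receptors were lower and 0 were higher in edgeR, against 2.07% and 1.67% of all genes tested, with medians of -0.04 and -0.19. Of these 9, DESeq2 with the block called Loxl2 and Mrc2, did not call Bmp1, Loxl3, Ddr2 and Itga11, and gave no adjusted p for Adamts14, Loxl4 and Tll1. The called genes were 3 of the 7 tested for propeptide removal and 3 of the 5 for cross-linking. Of 13 genes of hydroxylation and glycosylation and 7 of folding and export, 0 passed in edgeR with the block, and 3 and 2 had an unadjusted p under 0.05 (14.6% of all genes tested).

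With the block the values for hydroxylation, folding and export lay on both sides of 0. Serpinh1, the collagen chaperone HSP47, was at 4978 and 4768 TPM in control and 4722 and 4794 TPM in PEDF-treated MEFs (-0.01 with the block). P4hb, a subunit of prolyl hydroxylase, was at 1884 and 1963 TPM in control and 1865 and 2025 TPM in PEDF-treated MEFs (0.04), and Plod2, a lysyl hydroxylase, was at 0.00. Ppib, a prolyl isomerase, was at 0.11 (edgeR adjusted p = 0.1499 with the block), Plod3, another lysyl hydroxylase, at -0.12 (edgeR adjusted p = 0.107) and P3h1, a prolyl hydroxylase, at -0.11 (edgeR adjusted p = 0.233), about the size of the called value of Col1a2. Leaving out 1 library, the unblocked value ran from 0.02 to 0.20 for Ppib and from -0.19 to -0.02 for P3h1. With the length and GC trends removed, 9 of the 13 hydroxylation and glycosylation genes and 6 of the 7 folding and export genes were below 0. The median of all biosynthesis genes was then -0.06, as for the collagen genes, against -0.005 for all genes tested.

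Among the enzymes that act outside the cell, Lox, the lysyl oxidase that starts cross-links, was at 865 and 958 TPM in control and 795 and 884 TPM in PEDF-treated MEFs and was not called (-0.10, edgeR adjusted p = 0.198). Its relatives Loxl2 (-0.31, edgeR adjusted p = 1.47e-09), Loxl4 (-0.38, edgeR adjusted p = 4.98e-06) and Loxl3 (-0.16, edgeR adjusted p = 0.0434) were lower with the block. Loxl2 was at 280 and 326 TPM in control and 225 and 257 TPM in PEDF-treated MEFs, without overlap. The propeptide proteases Bmp1 (-0.18, edgeR adjusted p = 0.00416), Tll1 (-0.32, 0.00603) and Adamts14 (-0.28, 0.0210) were lower as well. Bmp1 lost its call with the length trend removed (edgeR adjusted p = 0.145) and with length and GC (0.363), and its unblocked value was -0.0039 without control 2. Of the 9 genes called among biosynthesis genes and receptors, 7 had an unblocked value that shrank by more than 1.5-fold without control 2, to -0.16 for Tll1, -0.15 for Adamts14 and -0.06 for Loxl3, and Loxl2 (-0.21) and Loxl4 (-0.36) shrank less. Without PEDF 1 6 of the 9 shrank that much, and without control 1 4 grew by more than 1.5-fold.

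Of the receptors, Ddr2, a receptor kinase that binds fibrillar collagen, was at 108 and 129 TPM in control and 92.2 and 110 TPM in PEDF-treated MEFs (-0.20, edgeR adjusted p = 0.000598 with the block). Itga11, the collagen-binding integrin chain of fibroblasts, had -0.27 (edgeR adjusted p = 4.41e-05) and Mrc2, which takes up collagen fragments, had -0.20 (edgeR adjusted p = 0.000458). Without control 2 the unblocked values were -0.09 for Ddr2, -0.03 for Itga11 and -0.10 for Mrc2. With the trends of length and GC content removed, Loxl2, Loxl4 and Tll1 were lower among the biosynthesis genes, and Ddr2, Itga11 and Mrc2 among the receptors. Mia3, which loads procollagen into transport carriers, and Itgb1 passed narrowly there (-0.15 and -0.13, edgeR adjusted p = 0.0403 and 0.0409). Neither was called with the block alone (edgeR adjusted p = 0.1105 and 0.223) or with the length trend alone removed (0.112 and 0.160). Leaving out 1 library, the unblocked value of Itgb1 ran from -0.17 to -0.02. With both trends removed, 1.17% of all genes tested were called lower. Besides Bmp1, Adamts14 (edgeR adjusted p = 0.0973) and Loxl3 (edgeR adjusted p = 0.0519) lost their calls in that fit, with values of -0.23 and -0.15 against -0.28 and -0.16 before the trends were removed, and Ddr2 was not called with the length trend alone removed (edgeR adjusted p = 0.0595). In the fibroblast marker list, Fn1 (-0.37) and Pdgfrb (-0.22) were lower and Dcn (0.35) and Lum (0.34) higher with the block. Without control 2 the unblocked values of these 4 were -0.24, -0.06, 0.13 and 0.04. In the unblocked fit of all 4 libraries 0 markers of any list were called.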

How the data were processed

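Polyadenylated RNA of 2 control and 2 PEDF libraries was sequenced from directional libraries. Per the labels and the submitters' processing notes, the authors used FastQC 0.11.7, Trimmomatic 0.38, HISAT2 2.1.0, SAMtools 1.9 and featureCounts 1.6.3 on build mm10, and they deposited counts per gene without normalization. The authors also deposited TPM, which sum to 1000000 per library. The annotation and the strand setting of the counting are not given in the sources used here. For 98.1% of 12668 genes with over 50 counts the length implied by TPM and counts equalled the exon length within a tolerance of 0.001, and 98.7% of genes had the coordinates of GENCODE M21.

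Counts were tested in R 4.3.3 with edgeR 4.0.16 (TMM factors, robust quasi-likelihood test, p-values adjusted by Benjamini-Hochberg across the 19384 genes that had 10 or more counts). The main fit had no covariate, as the methods name none. The labels give each experiment its own embryos, so the experiment was also a block; the differences between experiments seen with and without PEDF had r = 0.423 over 10703 genes, which are not replicates. Length and GC trends were fitted per library with splines of 5 degrees of freedom on genes with a mean log2 CPM above 3 and used as offsets. Other alternatives were RLE factors, DESeq2 1.42.0, no filter, filterByExpr, limma 3.58.1 on log2(TPM + 1) and log2(TPM + 0.1), and each library left out. The methods were tested on simulated data.

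The members, lists and tests were chosen with earlier results of these data known. Named genes were the main chains of types I to VI, members called in the main or blocked fit, the 3 largest values in each direction with at least 50 counts, Serpinh1, P4hb, Lox, Plod2, Ddr2, and biosynthesis or receptor genes called in either fit. Col9a1, Col9a2, Col9a3, Col11a2, Col4a3, Mia3, Ppib, Plod3, P3h1, Itgb1 and the marker genes given with a fold change were named after their values were seen. Every collagen gene has a level in the plot. Intervals from counting were not used, and real-time PCR and protein measurements were not analysed here.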

Additional observations from a re-analysis of the deposited data

How the results depend on the processing

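Without a block 0 collagen genes were called, and the count was 0 with RLE factors, filterByExpr, DESeq2 and limma at both pseudocounts. It was 3 with no filter on low counts (0.405% of all genes). With the replicate block it was 17, with the block and the length trend removed 12, with the length and GC trends removed 11, and with the block in DESeq2 7, all of them among the 17 (20 of the 44 had no adjusted p there). Leaving out each library gave 0 to 9. For the biosynthesis and receptor genes the count of 0 became 2 with no filter, 9 with the replicate block, 7 with the length trend removed, 8 with the length and GC trends removed and 2 with the block in DESeq2, and leaving out each library gave 0 to 5. Between experiments the 18 calls became 4 in DESeq2 and 0 with no term for the treatment, and without that term leaving out control 1, control 2, PEDF 1 or PEDF 2 gave 4, 1, 0 or 13. The median log2 fold change of the members stayed negative, from -0.195 to -0.06.

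Leaving out each library, the log2 change of the ratio ran from -0.0426 to 0.0326 for Col4a1 to Col4a2 and from -0.032 to 0.0146 for Col6a1 to Col6a2. In the same way the log2 fold change ran from -0.585 to 0.0158 for Col5a3, from -0.81 to 0.0043 for Col6a4 (both above 0 without control 2), from -0.182 to 0.739 for Col17a1 (below 0 without PEDF 2), from -0.0155 to 0.339 for Col9a1, from -0.124 to 0.35 for Col9a3, from -0.0142 to 0.251 for Col11a2, from -0.243 to 0.0001 for Plod3, from -0.0153 to 0.281 for Sox9, from -0.159 to 1.04 for Lyz2, from -0.0624 to 0.04 for Serpinh1 and from -0.0276 to 0.0323 for Plod2. P4hb was at -0.0098 and -0.0021 with the length trend and with the length and GC trends removed, and Plod2 at -0.0102 with both trends removed and at -0.0214 and -0.0216 in limma. None of these reversed values passed the test, and the cause was not tested. The 14 members under 1000 counts had blocked standard errors of 0.127 to 0.654, against 0.0338 to 0.114 for the other 30, and whether depth accounts for their lack of calls was not tested.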
